A study of Homo sapiens with 12 samples.

Results

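The NRF2 antioxidant and NADPH genes are 31 genes chosen as known targets or regulators of the transcription factor NRF2, and each was matched by its symbol to 1 Ensembl identifier among the 48162 in the count table. All 31 passed the filter on low counts that left 15630 genes for testing. They were followed in T84, a human cell line established from a colon carcinoma, which forms an epithelial sheet. The cells spent 3 h or 6 h in Hanks buffered saline of pH 6.0, or of pH 7.4 as the reference. The 4 groups were pH 6.0 for 3 h, pH 7.4 for 3 h, pH 6.0 for 6 h and pH 7.4 for 6 h, with 3 libraries each. In every group the growth medium had been exchanged for saline, so no library shows cells kept in medium, and a change with time is a change under saline. Total RNA from whole wells was sequenced.

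NRF2, encoded by NFE2L2, is held in the cytoplasm and marked for degradation by KEAP1, an adaptor of a ubiquitin ligase that senses electrophiles and oxidants. When KEAP1 releases it, NRF2 enters the nucleus, pairs with a small MAF protein and binds antioxidant response elements. Its targets make and recycle glutathione and thioredoxin, supply NADPH through the pentose phosphate pathway, handle haem and iron, reduce quinones and carbonyls, and export conjugates. In the intestinal epithelium these genes are part of the defence against dietary and microbial electrophiles.

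The elements have the core TGACNNNGC, where N is any base. RefSeq windows on GRCh38.p14, from 250 bases before to 50 after an annotated start, were searched for 24 of the 31 genes (34 windows). On either strand the core was found in 9 of these windows, which belong to 8 genes, with 11 matches in all. Of the matches, 0 overlapped the related AP-1 site TGANTCA. Sequence outside the windows was not searched, so a gene without a match or without a window here, such as GSR, may hold the core elsewhere. For comparison, 13.3% of the 35116 windows searched and 16.1% of the 27305 genes with such a window held a match, so a match by itself is common. These windows do not cover every gene. The windows below belong to the 5 genes that both differed between pH 6.0 and pH 7.4 at 6 h and held a match; capitals mark the core, which reads in reverse complement where it lies on the opposite strand.
GPX2, chr14:64942696-64942995, minus strand: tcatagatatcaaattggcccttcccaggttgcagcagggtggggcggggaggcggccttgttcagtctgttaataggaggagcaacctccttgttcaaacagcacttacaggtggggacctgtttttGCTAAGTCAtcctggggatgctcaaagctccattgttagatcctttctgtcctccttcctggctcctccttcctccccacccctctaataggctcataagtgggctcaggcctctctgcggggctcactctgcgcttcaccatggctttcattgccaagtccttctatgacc
MGST1, chr12:16346865-16347164, plus strand: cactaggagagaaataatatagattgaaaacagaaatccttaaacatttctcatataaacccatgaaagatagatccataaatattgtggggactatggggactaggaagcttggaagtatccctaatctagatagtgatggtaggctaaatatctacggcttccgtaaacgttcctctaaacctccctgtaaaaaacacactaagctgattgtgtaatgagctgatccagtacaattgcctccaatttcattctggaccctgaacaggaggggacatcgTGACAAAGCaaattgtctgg
PGD, chr1:10398814-10399113, plus strand: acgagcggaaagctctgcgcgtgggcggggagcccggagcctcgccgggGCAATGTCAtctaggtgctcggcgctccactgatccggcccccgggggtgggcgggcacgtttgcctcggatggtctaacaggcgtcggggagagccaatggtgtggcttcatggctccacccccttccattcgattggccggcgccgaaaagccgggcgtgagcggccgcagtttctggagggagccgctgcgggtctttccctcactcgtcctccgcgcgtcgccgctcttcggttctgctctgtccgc
CBR1, chr21:36069774-36070073, plus strand: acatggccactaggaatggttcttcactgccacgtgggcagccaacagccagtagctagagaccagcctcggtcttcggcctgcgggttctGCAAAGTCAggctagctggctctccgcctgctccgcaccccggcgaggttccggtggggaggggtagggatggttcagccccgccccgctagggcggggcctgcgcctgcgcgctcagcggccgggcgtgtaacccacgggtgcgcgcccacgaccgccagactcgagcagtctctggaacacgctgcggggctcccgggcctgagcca
KEAP1, chr19:10502722-10503021, minus strand: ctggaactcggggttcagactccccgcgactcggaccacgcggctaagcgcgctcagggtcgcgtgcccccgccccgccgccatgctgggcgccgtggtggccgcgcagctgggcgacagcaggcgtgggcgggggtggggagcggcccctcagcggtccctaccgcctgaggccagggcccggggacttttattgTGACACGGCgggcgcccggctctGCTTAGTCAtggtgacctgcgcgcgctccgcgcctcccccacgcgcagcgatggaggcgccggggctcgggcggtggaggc
Counted from the start site, the matches began at -122 in GPX2, at -201 in PGD and at -159 in CBR1, all on the opposite strand. KEAP1 had a match on its own strand at -54 and another on the opposite strand at -31. The MGST1 match began at 31, within the transcribed part, and the other windows of MGST1 and KEAP1 held none. GCLM, TXNRD1 and EPHX1 also held matches and did not differ between pH 6.0 and pH 7.4 at 6 h.

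Counts were compared with edgeR's quasi-likelihood F test, fitted to all 12 libraries, with Benjamini-Hochberg adjustment over the 15630 genes. A gene is said to have risen or fallen where the adjusted p was under 0.05. Levels are given as CPM, counts scaled by the TMM-adjusted library total, and each log2 fold change is followed by its standard error (SE). Whether the 3 libraries of a group were grown as separate cultures is not stated, so a p-value here measures only how far those libraries vary, which can be technical. In RNA from whole wells, fewer cells of a type and less RNA per cell cannot be told apart.

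The libraries held 13912532 to 18205946 counts at pH 6.0 for 3 h, 16865263 to 24331032 at pH 7.4 for 3 h, 15383041 to 20525403 at pH 6.0 for 6 h and 16574741 to 18921141 at pH 7.4 for 6 h. All 10 epithelial markers were detected, with summed levels of 7619 to 10480 CPM over the 12 libraries. The summed levels were 9809 to 10480 CPM at pH 6.0 and 7619 to 7827 CPM at pH 7.4 at 6 h, and their part in the results was not tested. Leukocyte markers summed to 8.21 to 12.4 CPM, with MS4A1 at 0, and endothelial markers to 9.55 to 13.7 CPM. Fibroblast markers summed to 8.15 to 33.9 CPM. The highest of these sums was in replicate 2 of pH 7.4 for 6 h, where COL1A1 alone had 14 CPM, while no other library passed 12 CPM. Without that library the number of antioxidant genes that differed by pH at 6 h was 19, as with it.

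At 6 h, 13 of the 31 antioxidant genes rose at pH 6.0 (41.9%) and 6 fell (19.4%). Over all genes tested 21.9% rose and 25.1% fell, and among the 7815 with a mean level above the median 28% rose and 32.6% fell. The median log2 fold change was 0.17 for the 31 genes and 0.00 for all genes. The 13 were MGST1, PRDX1, TXN, HMOX1, GPX2, FTL, OSGIN1, BLVRB, TALDO1, CBR1, NQO1, TKT and PGD, and the 6 were GCLC, KEAP1, AKR1B10, ABCC2, NFE2L2 and ABCC3. By role, all 3 pentose phosphate genes, 3 of 4 haem and iron genes and 2 of 4 thioredoxin genes rose, and 0 of these fell. Of 5 glutathione genes 2 rose and 1 fell, and of 6 reductases 2 rose and 1 fell. Of 3 regulators 2 fell, of 3 exporters 2 fell, and of the conjugation genes EPHX1 and UGDH neither passed the test.

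**Figure D1:**
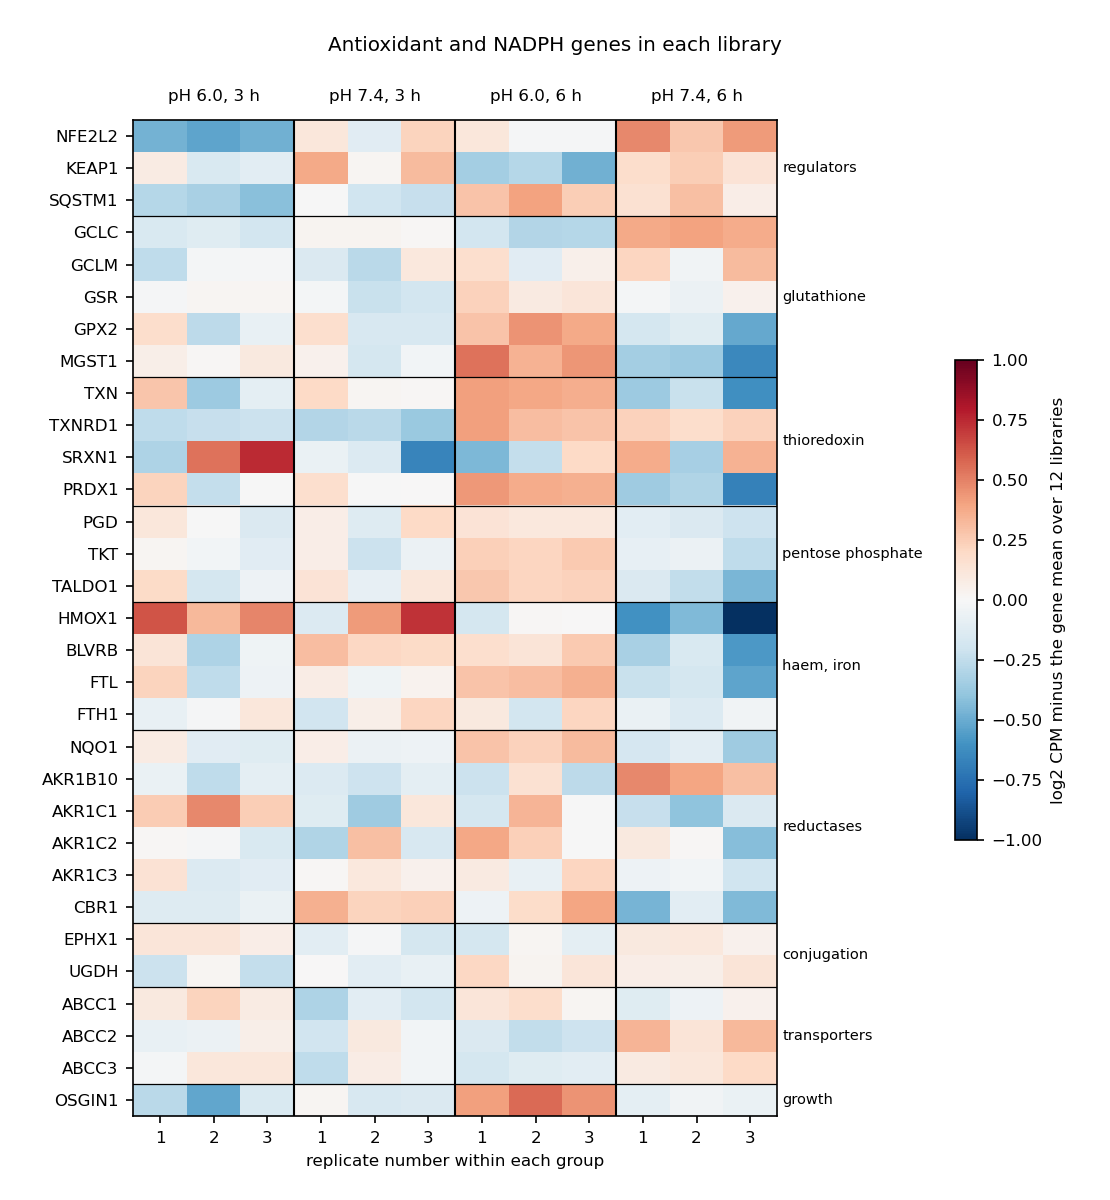
Level of each of the 31 genes in each of the 12 libraries, as log2 CPM minus the gene's mean over the libraries (colour), with genes in rows by role and libraries in columns by group and replicate number. At 6 h the rows from GPX2 to NQO1 are mostly red in the pH 6.0 libraries and blue in the pH 7.4 libraries, with GCLC and NFE2L2 turned the other way.

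At 3 h the difference was small. Of the 31 genes, 2 rose (ABCC1 and AKR1C1) and 2 fell (NFE2L2 and KEAP1), which is 6.45% in each direction, against 9.53% of all genes that rose and 9.26% that fell. Their median log2 fold change was -0.02. When libraries were scaled by their totals alone, 1 of the 31 rose and 4 fell at 3 h, and over all genes 1194 rose and 1752 fell, against 1489 and 1448 with TMM factors. None of the 13 genes that rose at 6 h passed the test at 3 h. Over all genes, 2682 of the 3418 that rose at 6 h did not pass at 3 h either, so this is common.

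**Figure D2:**
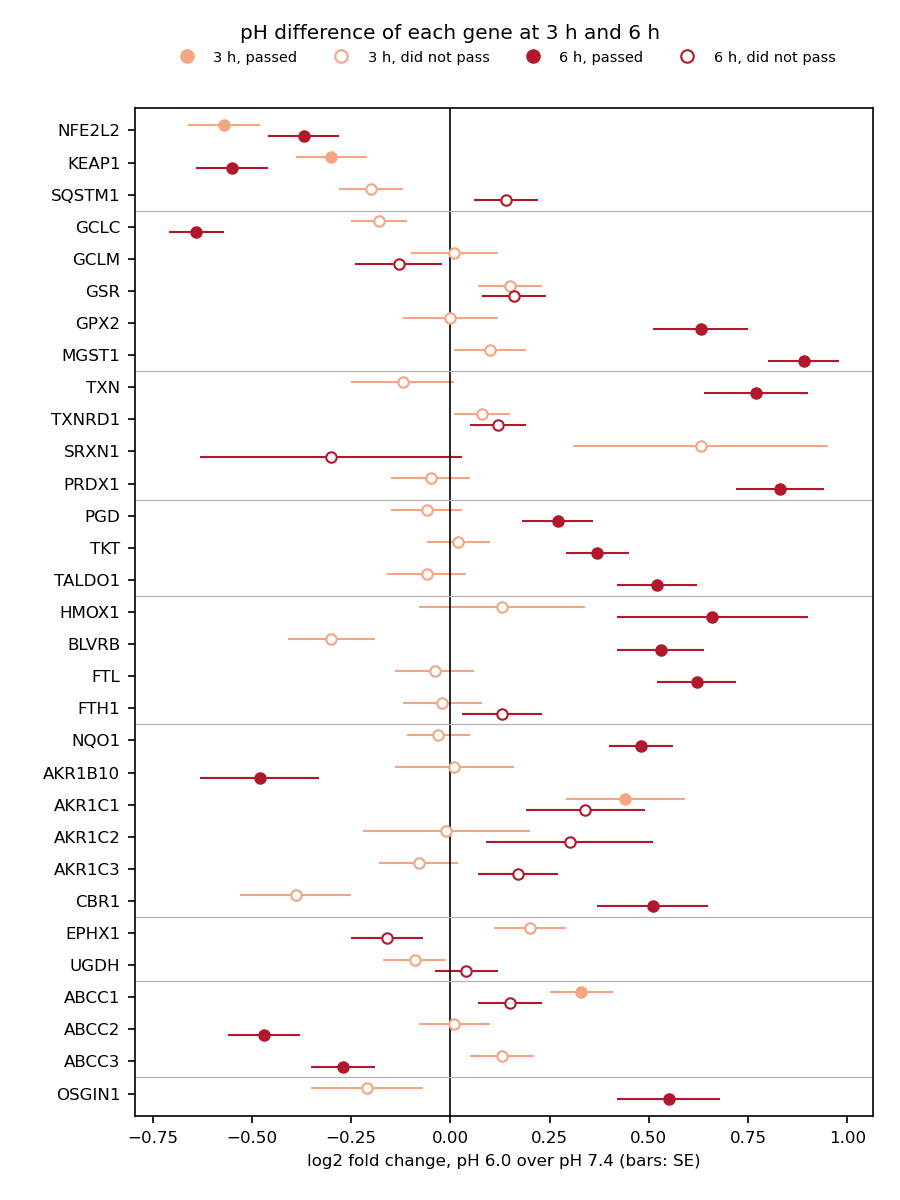
Log2 fold change of pH 6.0 over pH 7.4 for each of the 31 genes (rows, by role) at 3 h (orange) and 6 h (dark red), with bars for the SE; filled points passed the test and open ones did not. The 6 h points reach 0.89 for MGST1 and -0.64 for GCLC, while the 3 h points that passed lie between -0.57 and 0.44.

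Levels per kilobase of gene differed widely among the members. Averaged over the 12 libraries, the ferritin genes led with 826 CPM per kilobase for FTL and 721 for FTH1, followed by TALDO1 with 194, TXN with 184 and GPX2 with 171. HMOX1 had 2.44 CPM per kilobase, AKR1C1 1.64, AKR1C2 1.1 and SRXN1 0.575. Before division by length, HMOX1 (4.44 CPM), AKR1C2 (3.73 CPM) and SRXN1 (1.55 CPM) were low too, and such levels carry more counting error. AKR1C1 had 11 CPM over a recovered length of 6705 bases. The median level of the members was 107 CPM, against 18.1 CPM for all genes tested.

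NFE2L2 encodes NRF2. At 3 h it had 85.9, 82.9 and 85.5 CPM at pH 6.0, against 129, 110 and 139 CPM at pH 7.4. At 6 h it had 129, 118 and 118 CPM at pH 6.0, against 166, 144 and 160 CPM at pH 7.4. Every pH 6.0 library was below every pH 7.4 library of the same time. The transcript fell by 0.57 on the log2 scale at 3 h (SE 0.09, adjusted p = 7.89e-05) and by 0.37 at 6 h (SE 0.09, adjusted p = 0.00124). It rose with time in both salines, by 0.52 ± 0.09 (SE) at pH 6.0 and by 0.31 ± 0.09 at pH 7.4, and the pH effect did not pass the test for a difference between the times (0.21 ± 0.12, adjusted p = 0.217), though it did without replicate 2 of pH 7.4 for 3 h (0.30, adjusted p = 0.0403).

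KEAP1, the repressor of NRF2, was also lower at pH 6.0. At 3 h it had 100, 85.2 and 88 CPM at pH 6.0 and 123, 95.6 and 118 CPM at pH 7.4, with replicate 1 of pH 6.0 above replicate 2 of pH 7.4. At 6 h it had 74.7, 77.4 and 67.8 CPM at pH 6.0 and 107, 112 and 104 CPM at pH 7.4, with no overlap. The fall was -0.55 ± 0.09 (SE) at 6 h (adjusted p = 4.87e-05) and -0.30 ± 0.09 at 3 h (adjusted p = 0.0274). The 3 h call was lost in each of 4 fits that left out a library: replicate 1 of pH 7.4 for 3 h (-0.23), its replicate 3 (-0.26), replicate 2 of pH 6.0 for 3 h (-0.25) or its replicate 3 (-0.28), with adjusted p from 0.11 to 0.142.

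SQSTM1, an autophagy adaptor that binds KEAP1 and is also a target of NRF2, passed the test for time in both salines and for pH at neither time. It had 594, 645 and 578 CPM at pH 6.0 and 543, 599 and 511 CPM at pH 7.4 at 6 h, and 400, 390 and 365 CPM at pH 6.0 and 485, 425 and 416 CPM at pH 7.4 at 3 h. The groups overlapped at 6 h and not at 3 h. Neither pH difference passed the test (0.14 ± 0.08 (SE) at 6 h, adjusted p = 0.192, and -0.20 ± 0.08 at 3 h, adjusted p = 0.101). The 3 h difference passed when no filter on low counts was used (-0.23, adjusted p = 0.0408). The pH effect differed between the times (0.34 ± 0.12, adjusted p = 0.0373), a call lost in several fits that left out a library. With time SQSTM1 rose by 0.65 ± 0.08 at pH 6.0 and by 0.32 ± 0.08 at pH 7.4. The pH 7.4 rise was lost without replicate 3 of pH 7.4 for 3 h (0.26, adjusted p = 0.0506).

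Of the 5 glutathione genes, MGST1 and GPX2 rose at 6 h, GCLC fell, and GCLM and GSR did not pass the test. GCLC, the catalytic subunit of glutamate-cysteine ligase, had 85.1, 79 and 79.6 CPM at pH 6.0 for 6 h, against 126, 128 and 125 CPM at pH 7.4 for 6 h, and fell by 0.64 on the log2 scale (SE 0.07, adjusted p = 1.87e-07). The libraries of each group lay within a few CPM of each other and far from the other group. At 3 h GCLC had 87.2, 89 and 85.3 CPM at pH 6.0 and 98.7, 98.9 and 97.5 CPM at pH 7.4, without overlap, and the difference did not pass the test (-0.18 ± 0.07 (SE), adjusted p = 0.0872). With time GCLC rose at pH 7.4 (0.36 ± 0.07, adjusted p = 0.00049), while at pH 6.0 the change was -0.10 ± 0.07 (adjusted p = 0.34). GCLM, the modifier subunit, was at 35.6 to 43.1 CPM at pH 6.0 and 37.5 to 47.8 CPM at pH 7.4 at 6 h and passed the test in none of the comparisons. Its change with time at pH 7.4 (0.27 ± 0.11, adjusted p = 0.0723) passed without replicate 3 of 3 h (0.36) or replicate 2 of 6 h (0.37).

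MGST1, a membrane-bound glutathione transferase and peroxidase, had the largest pH difference of the 31 genes at 6 h. It had 302, 264 and 282 CPM at pH 6.0, against 164, 161 and 133 CPM at pH 7.4, a 1.85-fold difference (log2 0.89 ± 0.09 (SE), adjusted p = 2.94e-08). Its levels at 3 h were 216, 209 and 222 CPM at pH 6.0 and 214, 184 and 204 CPM at pH 7.4, which overlap. Its level at pH 6.0 for 6 h was above all other groups, and that at pH 7.4 for 6 h below them. GPX2, the glutathione peroxidase of the gut epithelium, had 232, 260 and 248 CPM at pH 6.0 and 169, 175 and 134 CPM at pH 7.4 at 6 h (0.63 ± 0.12, adjusted p = 0.000206). Earlier, at 3 h, GPX2 had 215, 159 and 181 CPM at pH 6.0 and 214, 171 and 171 CPM at pH 7.4, a log2 difference of 0.00 ± 0.12. GSR, which regenerates reduced glutathione with NADPH, had 110, 100 and 102 CPM at pH 6.0 and 92.3, 90 and 96.3 CPM at pH 7.4 at 6 h; the groups did not overlap, and the difference did not pass the test (0.16 ± 0.08, adjusted p = 0.0863). It passed without replicate 3 of pH 7.4 for 3 h (0.20), replicate 1 of pH 6.0 for 3 h (0.20) or replicate 2 of pH 6.0 for 6 h (0.22).

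In the thioredoxin group the carrier and its peroxidase were higher at pH 6.0 at 6 h and the reductase changed with time. TXN, thioredoxin itself, had 207, 204 and 201 CPM at pH 6.0 for 6 h and 121, 134 and 102 CPM at pH 7.4 for 6 h (0.77 ± 0.13 (SE), adjusted p = 8.56e-05). TXN at 3 h had 189, 121 and 146 CPM at pH 6.0 and 179, 158 and 157 CPM at pH 7.4, so replicate 1 of pH 6.0 stood above all pH 7.4 libraries and replicates 2 and 3 below them. Without that replicate 1 the 3 h difference passed the test in the downward direction (-0.31, adjusted p = 0.0332, against -0.12 and 0.557 with it). PRDX1, a peroxiredoxin that uses thioredoxin, had 190, 182 and 180 CPM at pH 6.0 and 110, 114 and 88 CPM at pH 7.4 at 6 h (0.83 ± 0.11, adjusted p = 1.74e-06), and 164, 119 and 140 CPM at pH 6.0 and 158, 140 and 141 CPM at pH 7.4 at 3 h, where the groups overlap.

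TXNRD1, the NADPH-dependent thioredoxin reductase, had 341, 318 and 314 CPM at pH 6.0 and 301, 290 and 302 CPM at pH 7.4 at 6 h, and 216, 219 and 222 CPM at pH 6.0 and 210, 213 and 199 CPM at pH 7.4 at 3 h. The times were far apart in both salines and the salines close together, though every pH 6.0 library was above every pH 7.4 library of the same time. TXNRD1 rose with time by 0.57 ± 0.07 (SE) at pH 6.0 (adjusted p = 4.03e-06) and by 0.52 ± 0.07 at pH 7.4 (adjusted p = 1.04e-05). The pH difference at 6 h was 0.12 ± 0.07 (adjusted p = 0.154). It passed with a filter of 5 CPM in 3 libraries (0.17, adjusted p = 0.0362). SRXN1, which repairs overoxidised peroxiredoxins, was at 0.94 to 2.5 CPM in all libraries and passed no test. Of the 50-base windows of its transcripts, 84.7% also occur in the overlapping gene AL121758.1, so its counts are uncertain.

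**Figure D3:**
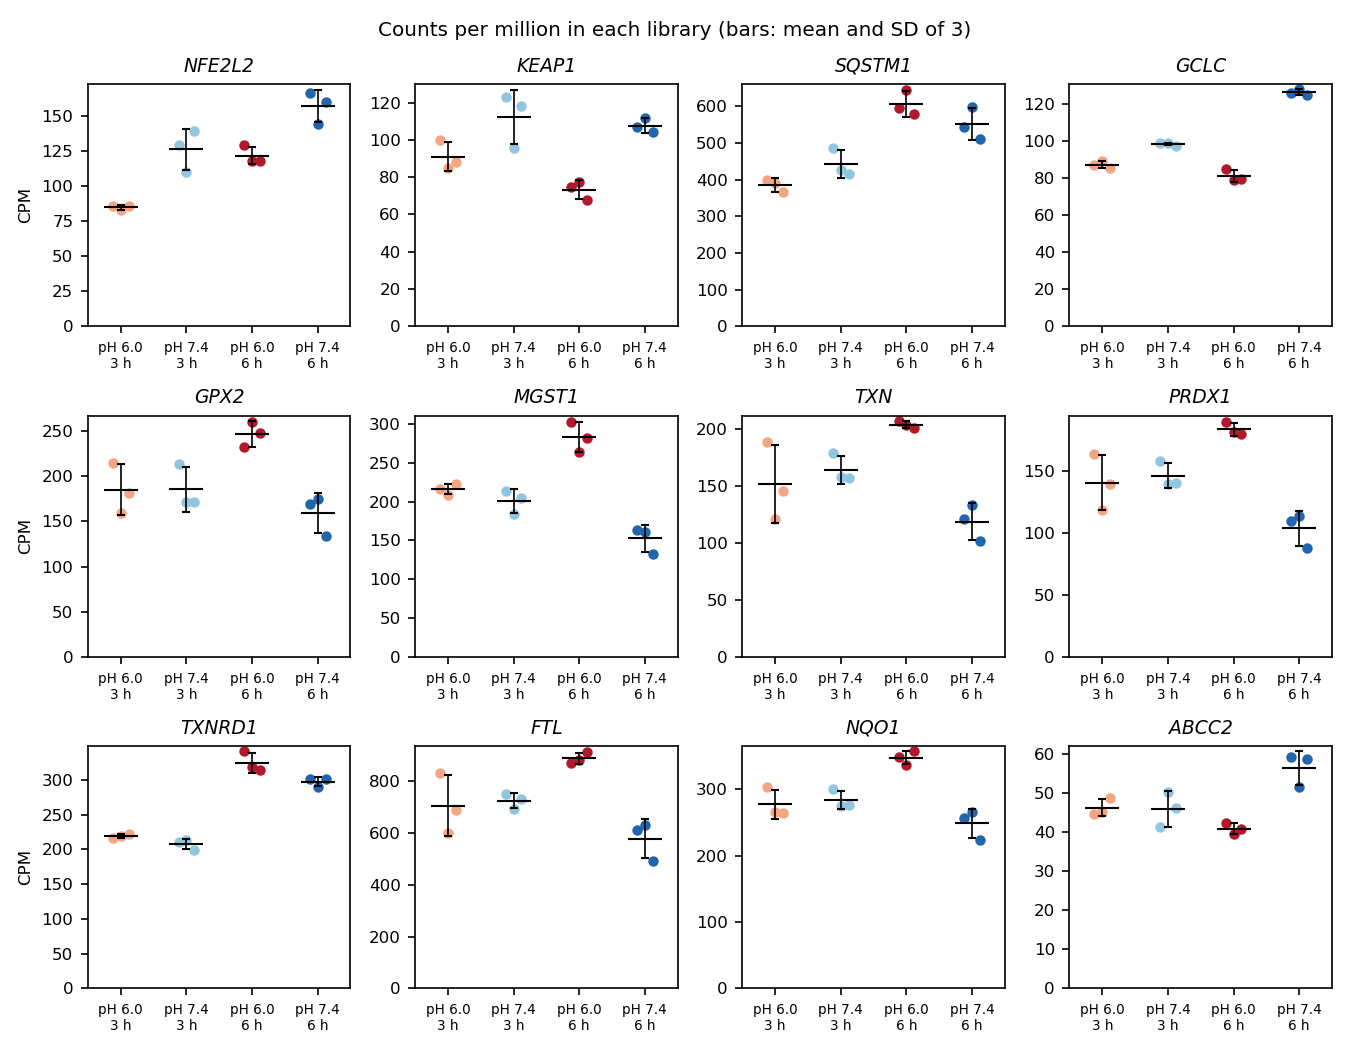
CPM in each library (points) for 12 of the genes, with the mean and SD of the 3 libraries of each group (bars) and groups from left to right pH 6.0 for 3 h, pH 7.4 for 3 h, pH 6.0 for 6 h and pH 7.4 for 6 h. MGST1 reaches 264 to 302 CPM at pH 6.0 and 133 to 164 CPM at pH 7.4 at 6 h, GCLC runs the other way, and TXNRD1 separates by time.

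All 3 pentose phosphate genes rose at 6 h. PGD, which makes NADPH in the oxidative branch, had 117, 114 and 114 CPM at pH 6.0 and 98.9, 96 and 92 CPM at pH 7.4 (0.27 ± 0.09 (SE), adjusted p = 0.0138). TKT, a transketolase of the non-oxidative branch, had 536, 526 and 544 CPM at pH 6.0 and 428, 436 and 381 CPM at pH 7.4 (0.37 ± 0.08, adjusted p = 0.000915). TALDO1, the transaldolase, had 311, 299 and 303 CPM at pH 6.0 and 233, 217 and 188 CPM at pH 7.4 (0.52 ± 0.10, adjusted p = 0.00012). In each gene the groups were separate at 6 h and overlapped at 3 h, where the 3 differences lay between -0.06 and 0.02. The PGD call was lost without replicate 3 of pH 7.4 for 6 h (0.24, adjusted p = 0.059).

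Of the haem and iron genes, 3 of 4 rose at 6 h. HMOX1, which cleaves haem to biliverdin, iron and carbon monoxide and is a widely used marker of NRF2 activity, was low, at 3.67, 4.2 and 4.16 CPM at pH 6.0 and 2.73, 3.06 and 1.76 CPM at pH 7.4 at 6 h, without overlap. At 3 h it had 6.44, 5.19 and 5.82 CPM at pH 6.0 and 3.78, 5.58 and 6.87 CPM at pH 7.4, which overlap. The 6 h difference was 0.66 ± 0.24 (SE, adjusted p = 0.0257), and it was lost without replicate 3 of pH 7.4 for 6 h (0.47, adjusted p = 0.145) or without replicate 2 of pH 6.0 for 6 h (0.66, adjusted p = 0.0593). HMOX1 fell with time at pH 7.4 (-1.07 ± 0.23, adjusted p = 0.00111); at pH 6.0 the change was -0.54 ± 0.22 (adjusted p = 0.0895). Both 6 h groups had means below those of 3 h.

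BLVRB, a biliverdin and flavin reductase, had 54.4, 53 and 58.1 CPM at pH 6.0 and 38.7, 43.6 and 32.5 CPM at pH 7.4 at 6 h (0.53 ± 0.11 (SE), adjusted p = 0.000395). BLVRB at 3 h had 52.8, 39.1 and 47.1 CPM at pH 6.0 and 60, 55.9 and 55.2 CPM at pH 7.4, so the order of the groups was opposite at the earlier time (-0.30 ± 0.11, adjusted p = 0.0547). The 3 h difference passed the test without replicate 1 of pH 6.0 for 3 h (-0.41, adjusted p = 0.0111), without replicate 2 of pH 7.4 for 6 h (-0.30, adjusted p = 0.0484) and without its replicate 3 (-0.30, adjusted p = 0.0379).

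Of the subunits of ferritin, which stores iron, FTL passed the test at 6 h and FTH1 did not. FTL, the light chain, had 870, 882 and 914 CPM at pH 6.0 and 611, 632 and 494 CPM at pH 7.4 at 6 h (0.62 ± 0.10 (SE), adjusted p = 4.42e-05), and 831, 600 and 688 CPM at pH 6.0 and 751, 693 and 732 CPM at pH 7.4 at 3 h, where replicate 1 of pH 6.0 was the highest and replicate 2 the lowest. FTH1, the heavy chain with the ferroxidase site, had 946, 776 and 1024 CPM at pH 6.0 and 842, 802 and 859 CPM at pH 7.4 at 6 h, with overlap, and did not pass the test (0.13 ± 0.10, adjusted p = 0.302). Without replicate 2 of pH 6.0 for 6 h it passed (0.27, adjusted p = 0.0392). Other genes share 18.3% of the 50-base windows of FTL and 19.9% of those of FTH1. FTLP3 shared the most with FTL (18.3%) and FTH1P10 the most with FTH1 (10.3%). How the authors' counting placed such reads is not given in the sources used here.

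The reductases were mixed. NQO1, a quinone reductase often used as the standard NRF2 target, had 349, 337 and 357 CPM at pH 6.0 and 256, 266 and 224 CPM at pH 7.4 at 6 h (0.48 ± 0.08 (SE), adjusted p = 4.67e-05), and 303, 265 and 264 CPM at pH 6.0 and 300, 275 and 277 CPM at pH 7.4 at 3 h, where the groups overlap. CBR1, a carbonyl reductase, had 8.76, 10.3 and 11.9 CPM at pH 6.0 and 6.57, 8.43 and 6.69 CPM at pH 7.4 at 6 h (0.51 ± 0.14, adjusted p = 0.00618). At 3 h CBR1 was in the opposite order, with 8.29, 8.28 and 8.64 CPM at pH 6.0 and 11.6, 10.6 and 10.7 CPM at pH 7.4, and the groups did not overlap at either time (3 h difference -0.39 ± 0.14, adjusted p = 0.0572).

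AKR1B10, an aldehyde and retinal reductase, went the other way from NQO1 and CBR1 at 6 h. It had 6.18, 7.99 and 6 CPM at pH 6.0 and 10, 9.45 and 8.82 CPM at pH 7.4 (-0.48 ± 0.15 (SE), adjusted p = 0.0101). The call was lost without replicate 1 of pH 6.0 for 6 h (-0.38, adjusted p = 0.0697) or its replicate 3 (-0.37, adjusted p = 0.0752). AKR1C1, a ketosteroid reductase, rose at 3 h (0.44 ± 0.15, adjusted p = 0.0399), with 12.9, 15.1 and 12.8 CPM at pH 6.0 and 9.92, 8.43 and 11.7 CPM at pH 7.4. That call was lost without any one of 5 libraries (0.34 to 0.48, adjusted p from 0.0518 to 0.17), namely replicates 1 and 2 of pH 7.4 for 3 h, replicates 2 and 3 of pH 6.0 for 3 h and replicate 1 of pH 7.4 for 6 h. At 6 h AKR1C1 had 9.58, 13.7 and 10.8 CPM at pH 6.0 and 9.19, 8.17 and 9.79 CPM at pH 7.4, with overlap. This difference did not pass the test (0.34 ± 0.15, adjusted p = 0.0741). The difference between the 3 h and 6 h pH effects did not pass either (-0.10 ± 0.21, adjusted p = 0.759). AKR1C1 passed at 6 h without replicate 3 of pH 7.4 for 3 h (0.37). It also passed without replicate 1 of pH 6.0 for 3 h (0.38) or for 6 h (0.49). Its relatives AKR1C2, at 2.74 to 4.82 CPM over all libraries, and AKR1C3, at 43.3 to 57.7 CPM, passed no test with all libraries. Without replicate 2 of pH 6.0 for 6 h AKR1C3 passed as higher at 6 h (0.28, adjusted p = 0.0384). AKR1C1 shares 28.3% of its 50-base windows with AKR1C2, and AKR1C2 38.1% with AKR1C1, so reads may be split between them.

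EPHX1, the microsomal epoxide hydrolase, had 28.5, 32.6 and 30 CPM at pH 6.0 and 34.4, 34.5 and 33.1 CPM at pH 7.4 at 6 h, and 34.9, 34.9 and 33.7 CPM at pH 6.0 and 29.9, 31.9 and 28.4 CPM at pH 7.4 at 3 h. The groups did not overlap at either time and were in opposite order, but neither difference passed the test (-0.16 ± 0.09 (SE) at 6 h, adjusted p = 0.143, and 0.20 ± 0.09 at 3 h, adjusted p = 0.121). UGDH, which makes the sugar donor for glucuronidation, had 168, 148 and 158 CPM at pH 6.0 and 152, 151 and 159 CPM at pH 7.4 at 6 h, with overlap (0.04 ± 0.08, adjusted p = 0.742).

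Of the 3 conjugate exporters, ABCC2 and ABCC3 fell at 6 h. ABCC1 rose at 3 h (0.33 ± 0.08 (SE), adjusted p = 0.00578), with 116, 127 and 115 CPM at pH 6.0 and 87.8, 101 and 95.8 CPM at pH 7.4, and did not pass at 6 h (0.15 ± 0.08, adjusted p = 0.137), with 118, 123 and 110 CPM at pH 6.0 and 99.8, 105 and 112 CPM at pH 7.4. The difference between these pH effects did not pass the test either (-0.19 ± 0.11, adjusted p = 0.231). ABCC2, the apical exporter, had 42.4, 39.5 and 40.7 CPM at pH 6.0 and 59.3, 51.5 and 58.7 CPM at pH 7.4 at 6 h (-0.47 ± 0.09, adjusted p = 0.000236), and 44.7, 45.2 and 48.8 CPM at pH 6.0 and 41.2, 50.3 and 46.2 CPM at pH 7.4 at 3 h, with overlap at 3 h alone. ABCC3, a basolateral exporter, had 261, 271 and 274 CPM at pH 6.0 and 313, 319 and 338 CPM at pH 7.4 at 6 h (-0.27 ± 0.08, adjusted p = 0.0115). The ABCC3 call was lost without replicate 3 of pH 7.4 for 6 h (-0.23, adjusted p = 0.0506) or replicate 1 of pH 6.0 for 6 h (-0.20, adjusted p = 0.0908).

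OSGIN1, an oxidative-stress-induced growth inhibitor, had 11.2, 12.5 and 11.5 CPM at pH 6.0 and 7.85, 8.22 and 8.03 CPM at pH 7.4 at 6 h (0.55 ± 0.13 (SE), adjusted p = 0.00178). The 3 h levels were 6.98, 5.89 and 7.57 CPM at pH 6.0 and 8.54, 7.53 and 7.63 CPM at pH 7.4, with overlap. The pH 6.0 libraries of 6 h stood above those of all other groups.

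Levels at 6 h were then set against those at 3 h within each saline. At pH 6.0, 12 of 31 rose by 6 h and 1 fell, against 8.64% of all genes that rose and 10.9% that fell. Their median log2 fold change was 0.24, and -0.02 over all genes. At pH 7.4, 6 rose and 8 fell, against 17.2% and 14.4% of all genes, with a median of -0.06. With library totals alone the counts were 7 that rose and 4 that fell at pH 6.0, and 5 and 10 at pH 7.4. Over all genes that scaling gave 773 that rose and 2499 that fell at pH 6.0, against 1351 and 1699 with TMM factors, and 2093 and 3179 at pH 7.4, against 2695 and 2247.

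In MGST1, TXN, PRDX1 and FTL the directions over time were opposite in the salines. MGST1 rose by 0.39 ± 0.09 (SE) at pH 6.0 and fell at pH 7.4 (-0.39 ± 0.09). TXN rose by 0.42 ± 0.13 at pH 6.0 and fell at pH 7.4 (-0.47 ± 0.13), PRDX1 rose by 0.38 ± 0.10 at pH 6.0 and fell at pH 7.4 (-0.50 ± 0.10), and FTL rose by 0.33 ± 0.10 at pH 6.0 and fell at pH 7.4 (-0.33 ± 0.10). OSGIN1 rose at pH 6.0 (0.78 ± 0.14) and was at 0.02 ± 0.13 at pH 7.4. GPX2 (0.41 ± 0.12), NQO1 (0.33 ± 0.08), TKT (0.28 ± 0.08) and UGDH (0.26 ± 0.08) also rose at pH 6.0, and TALDO1 (-0.34 ± 0.10), BLVRB (-0.58 ± 0.11) and CBR1 (-0.60 ± 0.14) also fell at pH 7.4. KEAP1 was the single gene that fell at pH 6.0 (-0.31 ± 0.09), and AKR1B10 (0.54 ± 0.14) and ABCC2 (0.30 ± 0.09) rose at pH 7.4.

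Several of these time calls lay near the threshold and were lost when a library was left out, which also lowered the counts over all genes. With time at pH 6.0, 1351 of all genes rose and 1699 fell. These were 801 and 1114 without replicate 3 of pH 6.0 for 3 h, and 1107 and 1173 without replicate 3 of pH 6.0 for 6 h. At pH 6.0 the count of 13 changed genes was 6 without replicate 3 of pH 6.0 for 3 h and 8 without replicate 3 of pH 6.0 for 6 h. Without the first of these NQO1 (0.29, adjusted p = 0.0502), TKT (0.24), UGDH (0.22), PRDX1 (0.38, adjusted p = 0.0511), GPX2 (0.40), TXN (0.39) and FTL (0.31) missed the threshold, and without the second TKT (0.28), GPX2 (0.42), TXN (0.45), FTL (0.33) and KEAP1 (-0.24) missed it. Without replicate 2 of pH 6.0 for 3 h, TXN (0.28), GPX2 (0.31), PRDX1 (0.28) and FTL (0.23) missed it, and without its replicate 1 KEAP1 did (-0.21). Without replicate 1 of pH 6.0 for 6 h, UGDH (0.24), TXN (0.43), FTL (0.37) and KEAP1 (-0.30) missed it, and without replicate 2 of that group GPX2 (0.39), TXN (0.44) and FTL (0.35). TXN also missed it without replicate 2 of pH 7.4 for 3 h (0.43, adjusted p = 0.0528). At pH 7.4 FTL (-0.22), TALDO1 (-0.26) and ABCC2 (0.27) missed it without replicate 3 of 6 h, ABCC2 (0.27) without replicate 1 of 6 h, and FTL (-0.30), TXN (-0.40) and ABCC2 (0.23) without replicate 1 of 3 h. With a correction for gene length, FTL (-0.23, adjusted p = 0.075), TALDO1 (-0.20, adjusted p = 0.077) and ABCC2 (0.16, adjusted p = 0.147) missed it at pH 7.4, while TKT passed as lower (-0.33, adjusted p = 0.0215) and EPHX1 as higher (0.33, adjusted p = 0.00629). At pH 6.0 that correction made TALDO1 pass as higher (0.24, adjusted p = 0.0364).

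**Figure D4:**
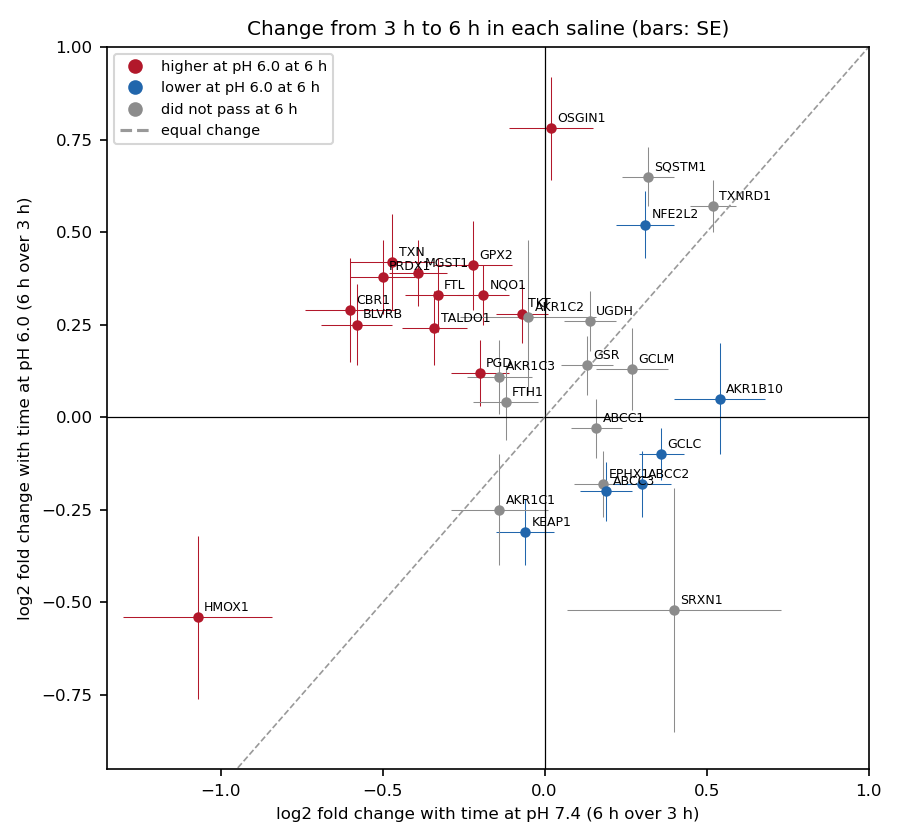
Log2 fold change of 6 h over 3 h for each of the 31 genes at pH 7.4 (x axis) and pH 6.0 (y axis), with bars for the SE, a dashed line of equal change, and colour for the pH result at 6 h, which uses the same 6 h libraries. MGST1, TXN, PRDX1 and FTL lie left of 0 and above 0, while TXNRD1 and SQSTM1 are above 0 on both axes.

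The pH effect was then compared between the times in the same fit, as the log2 fold change at 6 h minus that at 3 h. Of the 31 genes 13 had a higher and 4 a lower pH effect at 6 h, against 13.1% and 16.3% of all genes, and the median was 0.25. Among the genes that passed, TXN and CBR1 differed most (0.89 ± 0.18 (SE), adjusted p = 0.00157, and 0.89 ± 0.20, adjusted p = 0.00233), followed by PRDX1 (0.88 ± 0.15, adjusted p = 0.000224). GCLC, ABCC2, ABCC3 and EPHX1 had the lower effects, ABCC2 and ABCC3 not with the length correction (-0.25, adjusted p = 0.126, and -0.14, adjusted p = 0.315). SRXN1 was at -0.93 ± 0.46 and did not pass (adjusted p = 0.14). For HMOX1 the difference was 0.54 ± 0.32 and did not pass (adjusted p = 0.217).

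Shorter genes had higher values at pH 6.0 than longer ones across the whole transcriptome at 6 h. Lengths were recovered from the deposited counts and RPKM values. With all tested genes divided by length into 10 bins of equal size, the median log2 fold change at 6 h was 0.26 in the bin of the shortest genes, 0.27 in the next and -0.32 in that of the longest. The genes that rose had a median length of 1822 bases and those that fell 3384 bases, against 2994.5 bases for all genes. The rank correlation of a gene's deviation from its mean with its length, over 15630 genes that share libraries and depth, was -0.13, -0.19 and -0.17 in the pH 6.0 libraries and 0.26, 0.20 and 0.35 in the pH 7.4 libraries of 6 h. At 3 h it was -0.21, 0.19 and 0.01 at pH 6.0 and -0.24, -0.08 and -0.14 at pH 7.4, so the 3 libraries of pH 6.0 for 3 h spread widely. TXN, FTL and PRDX1, whose 3 h levels were highest in replicate 1 and lowest in replicate 2 of pH 6.0, are among the shortest members. FTH1, also short with 1229 bases, did not share this order (837, 875 and 954 CPM in replicates 1, 2 and 3). A part of length in this spread was not tested.

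With a correction for length in each library, 16 of the 31 genes rose and 6 fell at 6 h. PGD (0.19, adjusted p = 0.0553) and ABCC3 (-0.07, adjusted p = 0.417) no longer passed. GSR (0.18, adjusted p = 0.0361), TXNRD1 (0.21, adjusted p = 0.00814), AKR1C1 (0.58, adjusted p = 0.00298) and ABCC1 (0.38, adjusted p = 4.72e-05) passed as higher, and EPHX1 as lower (-0.27, adjusted p = 0.0144). Over all genes 3786 then rose and 3440 fell. At 3 h the correction made GCLC (-0.19, adjusted p = 0.0417) and BLVRB (-0.30, adjusted p = 0.0243) pass as lower and EPHX1 as higher (0.25, adjusted p = 0.0436), and AKR1C1 missed the threshold (0.34, adjusted p = 0.104). TKT, which has a recovered length of 7286 bases, lay above the median of its length bin (0.37 against -0.32). A recovered length is the one behind the RPKM values and need not be that of the transcripts present in these cells. The corrected values of TKT and of AKR1C1, with 6705 bases, carry this limit.

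**Figure D5:**
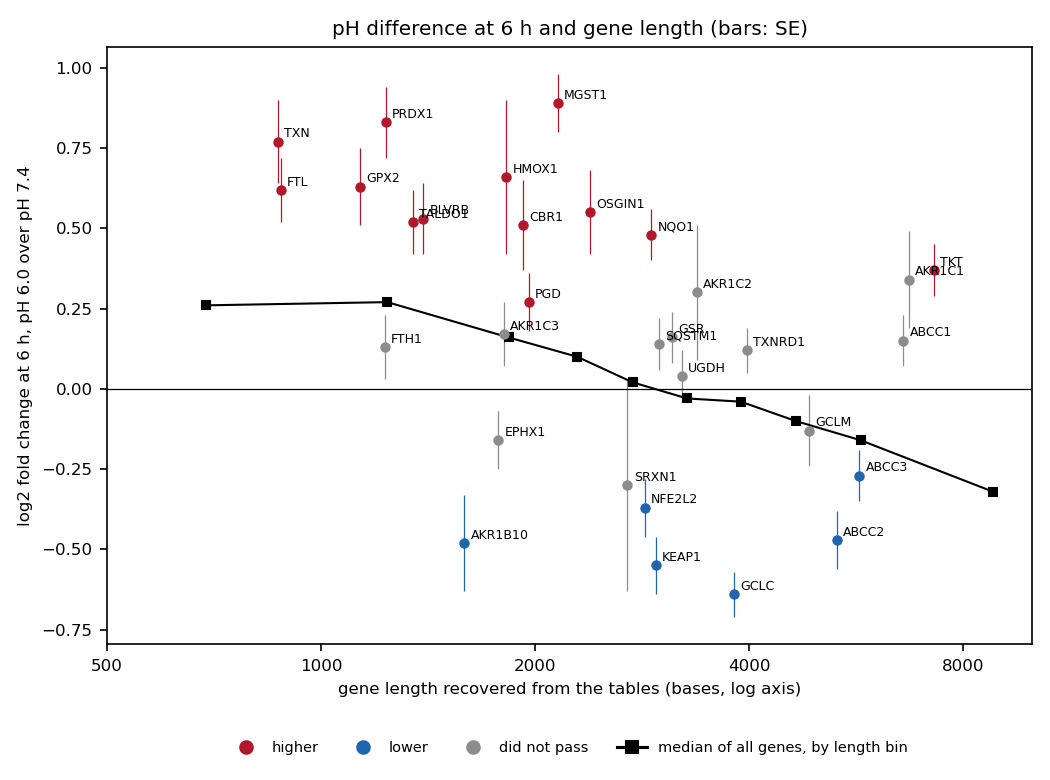
Log2 fold change of pH 6.0 over pH 7.4 at 6 h against gene length (bases, log axis) for the 31 genes, coloured by the test, with bars for the SE and black squares for the median of all tested genes in each length bin. The squares run from 0.26 at the short end to -0.32 at the long end. Most red points lie above them, and KEAP1, GCLC, NFE2L2, AKR1B10, ABCC2 and ABCC3 lie below them.

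Other genes of the same pathways were taken from lists of 166 symbols, of which 163 matched and 145 were tested. Like the members, these lists were chosen with earlier results of these data known, so they are not an independent check. Their counts are given without the correction for gene length. At 6 h 60 of the 145 rose (41.4%) and 24 fell (16.6%), against 21.9% and 25.1% of all genes, with a median log2 fold change of 0.21. At 3 h 7 rose (4.83%) and 12 fell (8.28%), against 9.53% and 9.26% of all genes. The shares of all genes at 6 h are also the background of the list counts that follow, of which those of the conjugation list (35% rose and 20% fell) lie nearest to it. By list at 6 h, 12 of 27 other glutathione genes rose and 3 fell, 11 of 21 thioredoxin genes rose and 2 fell, and 8 of 21 NADPH genes rose and 3 fell. Likewise 8 of 17 haem and iron genes rose and 2 fell, 10 of 18 reductases rose and 0 fell, and 7 of 20 conjugation genes rose and 4 fell. Among 14 other regulators 3 rose and 7 fell, and among 7 other transporters 1 rose and 3 fell.

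Of the small MAF proteins, the partners of NRF2, 1 rose and 2 fell at 6 h. MAFF rose (1.01 ± 0.08 (SE), adjusted p = 8.27e-10), while MAFG fell (-0.66 ± 0.08, adjusted p = 7.69e-07) and had already fallen at 3 h (-0.55 ± 0.08). MAFK, named after its values were seen, fell at 6 h (-0.33 ± 0.09, adjusted p = 0.00424) and at 3 h (-0.36 ± 0.09, adjusted p = 0.0078). The 6 h call of MAFK was lost without replicate 1 (-0.24) or 3 (-0.25) of pH 6.0 for 6 h, and the 3 h call without replicate 2 of pH 6.0 for 3 h (-0.30). BACH1, a repressor that competes for the same elements, was at -0.14 ± 0.08 (adjusted p = 0.151) and rose with time by 0.81 ± 0.08 at pH 6.0 and 0.97 ± 0.08 at pH 7.4. RBX1, the ring protein of the ubiquitin ligase that KEAP1 serves, rose (0.77 ± 0.27, adjusted p = 0.0242), a call lost without replicate 1 (0.71) or 3 (0.64) of pH 7.4 or replicate 2 of pH 6.0 (0.57) at 6 h. BACH2 (-2.48 ± 0.61) and PALB2, a DNA repair protein that can bind KEAP1 (-0.83 ± 0.11), fell. BACH2 was very low at 6 h, with 0.136, 0.152 and 0.205 CPM at pH 6.0 and 0.989, 0.806 and 1.03 CPM at pH 7.4. The size of its fall is therefore uncertain, since such levels carry more counting error.

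SLC7A11, the cystine importer that feeds glutathione synthesis, fell at pH 6.0 by 1.63 on the log2 scale at 6 h (SE 0.11, adjusted p = 3.31e-10) and by 0.51 at 3 h (SE 0.11, adjusted p = 0.00355). CHAC1, which degrades glutathione, fell as well (-1.04 ± 0.14 (SE) at 6 h and -1.44 ± 0.15 at 3 h). GLRX, a glutaredoxin, rose at 6 h (0.68 ± 0.16, adjusted p = 0.00141), and so did GSTA4, a glutathione transferase (0.85 ± 0.32, adjusted p = 0.033), whose call was lost without replicate 3 of pH 7.4 (0.55) or replicate 1 (0.67) or 2 (0.87) of pH 6.0 at 6 h. It was lost with DESeq2 (0.86, adjusted p = 0.055) and with the length correction too (0.74, adjusted p = 0.0568).

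Of the NADPH enzymes outside the members, MTHFD1, a folate enzyme, rose at 6 h (0.52 ± 0.08 (SE), adjusted p = 2.26e-05). ME1, the cytosolic malic enzyme, did not pass (-0.14 ± 0.08, adjusted p = 0.157). The mitochondrial folate enzymes MTHFD2 (-0.93 ± 0.08) and MTHFD1L (-0.45 ± 0.09) fell. In the thioredoxin list MSRB1, a methionine sulfoxide reductase (0.74 ± 0.11), and TXNDC17 (0.72 ± 0.18) rose, and the sestrins SESN2 (-0.53 ± 0.10) and SESN3 (-1.08 ± 0.16) fell. TXNIP, an inhibitor of thioredoxin, was not analysed here.

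Among the remaining lists, SLC11A2, an iron importer (0.82 ± 0.13 (SE)), and FECH, which inserts iron into haem (0.76 ± 0.16), rose at 6 h, while IREB2, which controls ferritin translation (-0.62 ± 0.08), and SLC48A1, a haem transporter (-0.43 ± 0.11), fell. PIR (0.70 ± 0.13) and ALDH1A1, an aldehyde dehydrogenase (0.68 ± 0.09), rose. Of the conjugation genes SULT1A2, a sulfotransferase (1.06 ± 0.23), and UGP2, which makes UDP-glucose (0.58 ± 0.08), rose, and NAT1, an acetyltransferase (-1.01 ± 0.17), and AHR, the aryl hydrocarbon receptor (-0.71 ± 0.08), fell. The drug exporters ABCB1 (-1.14 ± 0.09) and ABCC5 (-0.40 ± 0.09) fell, ABCC5 not with the length correction (-0.19, adjusted p = 0.087). SLC39A8, a zinc and manganese importer, rose (0.54 ± 0.17), a call lost without replicate 3 of pH 7.4 (0.38) or replicate 1 of pH 6.0 (0.41) at 6 h.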

How the data were processed

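The series holds 12 RNA-seq libraries of T84 cells, 3 in each of 4 groups of pH and time. The deposited table holds read counts made by the authors for each gene, and the deposited RPKM values are the authors' counts scaled by gene length and library total. STAR, CASAVA and the build hg19 are named per the submitters' processing notes, while versions, annotation, counting program and strand setting were not given in the sources used here. The counts gave totals of 13912532 to 24331032. RPKM values served only to recover gene lengths, which reproduced 100.0% of them within a relative tolerance of 1e-06.

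Tests used edgeR 4.0.16 in R 4.3.3 (robust quasi-likelihood F test, TMM factors, default expression filter, 1 fit over 12 libraries with 8 residual degrees of freedom), with Benjamini-Hochberg adjustment over 15630 genes and a threshold of 0.05; the procedure was tested on simulated data. The biological coefficient of variation was 9.29%. Alternatives were DESeq2 1.42.0, median-of-ratios factors, library totals, no filter, a filter of 5 CPM in 3 libraries, the replicate number as a block, only the groups compared, a test against a fold change of 1.2, a per-library length correction (natural spline, 5 degrees of freedom) and each library left out.

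Values are given in every library for NFE2L2, KEAP1, SQSTM1, HMOX1 and NQO1. In each other role they are given for up to 3 members with the smallest p at 6 h. For part of these members only the 6 h libraries are printed. GSR, FTH1 and AKR1C1 were added after their values were seen. Other pathway genes named are a fixed set and up to 2 genes per list and direction with the largest change at 6 h. Part of these named genes is not reported here. Members and lists were chosen with earlier results of these data known. Shared sequence was counted in 50-base windows of GENCODE 29 transcripts, and promoters are RefSeq sequences of GRCh38.p14; no coordinates of the deposited tables were used. Exons of 9 members (NFE2L2, SQSTM1, GCLC, PRDX1, FTH1, NQO1, CBR1, EPHX1 and UGDH) overlap a gene on the other strand, and without a known strand setting reads of the pair cannot be told apart. NFE2L2, GCLC, SRXN1 and OSGIN1 overlap a gene on their own strand, and AKR1B10 shares 14.6% of its windows, mostly with AKR1B15.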

Additional observations from a re-analysis of the deposited data

Results flagged for a closer look

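For 17 of the 31 genes the pH effect at 6 h differed from that at 3 h in the interaction term of edgeR's fit (Benjamini-Hochberg adjusted p under 0.05), with 13 higher and 4 lower, against 13.1% and 16.3% of all genes. It is given here as the log2 fold change at 6 h minus that at 3 h. In the thioredoxin group it was 0.89 for TXN and 0.88 for PRDX1, and among the reductases 0.89 for CBR1 and 0.52 for NQO1. BLVRB was at 0.83 and FTL at 0.66. MGST1 was at 0.78 and GPX2 at 0.63, while GCLC was at -0.46. OSGIN1 was at 0.76. The pentose phosphate genes were at 0.58 for TALDO1, 0.34 for TKT and 0.33 for PGD. SQSTM1 was at 0.34. The exporters ABCC2 and ABCC3 were at -0.48 and -0.40, and EPHX1 at -0.36.

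The weakest of these calls were lost in fits that left out a library. PGD passed only narrowly (adjusted p = 0.0491) and missed the threshold in 10 of the 12 fits that left out a library (0.26 to 0.36, adjusted p up to 0.152). EPHX1 missed it in 10 of the 12 (-0.38 to -0.28, adjusted p up to 0.133). SQSTM1 missed it in 6 (0.27 to 0.35) and TKT in 3: without replicate 1 of pH 7.4 for 3 h (0.28), replicate 3 of pH 7.4 for 6 h (0.29) or replicate 3 of pH 6.0 for 3 h (0.31). ABCC3 missed it without replicate 1 of pH 7.4 for 3 h (-0.30) or replicate 1 of pH 6.0 for 6 h (-0.34). With the length correction PGD (0.18), ABCC2 (-0.25) and ABCC3 (-0.14) missed it.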

How the results depend on the processing

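Over the 31 genes and 5 comparisons, no gene reversed its direction where either fit made a call, in any alternative that gave a value. These were 21 for each pH or time comparison and 20 for the interaction, which has no fit of the compared groups alone, and fewer for AKR1C2 and SRXN1, which the filter of 5 CPM removed. DESeq2 lost 0 calls and gained 1, median-of-ratios factors changed 0, and the test against a fold change of 1.2 lost the most, 34. That test left 1 changed gene in place of 4 for pH at 3 h, 12 in place of 19 for pH at 6 h, 5 in place of 14 for time at pH 7.4, 4 in place of 13 for time at pH 6.0, and 11 in place of 17 for the interaction. When each library was left out in turn, the counts ranged from 2 to 6 for pH at 3 h, 16 to 21 for pH at 6 h, 11 to 16 for time at pH 7.4, 6 to 14 for time at pH 6.0, and 12 to 18 for the interaction. The lowest at 3 h came without replicate 1 of pH 7.4 or replicates 2 or 3 of pH 6.0. With the replicate block the counts were 5, 19, 16, 14 and 17 in the same order. Numbers did not pair the libraries: of 18 same-numbered pairs, 2 correlated above 0.1 (r from -0.127 to 0.226). The block changed no count of called members by over 1.5 times.

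Over all genes the test against a fold change of 1.2 left 368 higher and 332 lower for pH at 3 h (1489 and 1448 without it), 1912 and 2552 for pH at 6 h (3418 and 3924), 1150 and 516 for time at pH 7.4 (2695 and 2247), 426 and 632 for time at pH 6.0 (1351 and 1699) and 968 and 1389 for the interaction (2048 and 2541). For pH at 3 h they were 758 and 891 without replicate 2 of pH 6.0, 816 and 832 without its replicate 3, and 779 and 882 without replicate 1 of pH 7.4. For time at pH 6.0 they were 801 and 1114 without replicate 3 of 3 h. Fits with a library left out rest on fewer libraries. For time at pH 6.0 the length correction gave 2174 higher and 1453 lower, and for the interaction 2013 and 1533. Low counts limit HMOX1, AKR1C2 and SRXN1, and other pathway genes such as BACH2.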
